A study of Monodelphis domestica with 6 samples.

Results

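Matrix metalloproteinases (MMPs), ADAM and ADAMTS proteases, ADAMTS-like proteins (ADAMTSL) and tissue inhibitors of metalloproteinases (TIMPs) were described in skin fibroblasts and induced pluripotent stem cells (iPSCs) of *Monodelphis domestica*, a laboratory opossum. All genes whose symbol is MMP, ADAM, ADAMTS, ADAMTSL or TIMP followed by a number were taken, whatever their values, which gave 51 of the 35665 genes measured. They comprise 16 MMPs, 11 ADAMs, 17 ADAMTSs, 4 ADAMTSLs and 3 TIMPs. No gene measured carried the symbol TIMP1, MMP1, MMP3, MMP10, MMP11, MMP12, MMP19 or ADAMTS20, so the counts cover only part of the families.

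RNA was sequenced from 2 cultures of neonatal skin fibroblasts (neoSFs) and from 4 libraries of the iPSCs made from them (monoiPSCs). The neoSFs were untreated wild type cells from the skin of neonatal female pups, grown in a medium with serum, 1 culture from each of the inbred strains FD2M1 and LSD1. The monoiPSCs came from the same strains, 1 line from each, and each line was sequenced at passage 15 and at passage 25. They had been reprogrammed with episomal plasmids for human OCT4, SOX2, NANOG, KLF4, LIN28 and cMYC and a p53 inhibitor, and grew without feeder cells in a medium with LIF, bFGF and a ROCK inhibitor. A monoiPSC group of 4 libraries therefore holds only 2 lines, and strain and line cannot be told apart. The neoSF RNA was read in-house with shorter single-end reads and the monoiPSC RNA by a sequencing service with longer paired-end reads, so sequencing and cell type cannot be told apart either, nor can the culture medium. The p-values measure the spread between these libraries.

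Libraries held 14278794 and 16982978 counts in neoSFs and between 28684754 and 35564261 in monoiPSCs. Levels are given as normalized read counts (NRC), the authors' counts after scaling for library depth. They can be compared between libraries for 1 gene, but not between genes, since they were not divided by gene length. A count of 3, used as the detection floor, equals an NRC of 5.85 and 4.75 in the FD2M1 and LSD1 neoSFs and of 1.55 to 1.88 in monoiPSCs. Of the fibroblast markers found, 11 of 12 were lower in monoiPSCs, and all 9 pluripotency markers were higher. Of 7 keratinocyte markers only 3 were found, 2 of them below an NRC of 20 in every library. The other, DSG3, had 46.8 and 148 in the FD2M1 and LSD1 neoSFs, at most 6.73 in monoiPSCs, and was called lower. The 5 endothelial markers had a summed NRC of 263 and 160 in neoSFs and of 74.1 to 152 in monoiPSCs. Of these, CDH5 was at 0 counts in both neoSFs and at an NRC of at most 1.26 in monoiPSCs. KDR had 210 and 28.8 in neoSFs and 47.3 to 113 in monoiPSCs, which overlapped, and was not called. VWF, at 46.2 and 109 in neoSFs, was called lower in monoiPSCs. PECAM1 was higher in every monoiPSC library, at 9.27 to 16.3 against 1.95 and 0 in neoSFs. TEK overlapped between the cell types, and neither PECAM1 nor TEK was tested. Of 5 melanocyte markers 4 were found. DCT had 1.95 and 1.58 in neoSFs and 4372 to 15279 in monoiPSCs and was called higher, MITF was not called, and TYR and MLANA were not tested. Of the hypoblast markers, GATA6 had 419 and 1079 in neoSFs and at most 28.3 in monoiPSCs, and was called lower. GATA4, SOX17 and APOA2 were not tested. In bulk RNA, fewer cells of a type and less RNA per cell cannot be told apart.

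MMPs are zinc proteases that cut collagens, proteoglycans and other proteins of the extracellular matrix, and most are secreted as inactive precursors. Some are anchored in the plasma membrane, where they also activate other MMPs. ADAMs are membrane proteases that release the outer parts of receptors, adhesion molecules and growth factors, ADAMTSs are their secreted relatives that act on procollagens, proteoglycans and von Willebrand factor, and ADAMTSLs resemble ADAMTSs but lack the protease domain. TIMPs bind and block the active site of these enzymes. Fibroblasts are known as a main source of both the proteases and the TIMPs in connective tissue.

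Genes were tested when their NRC was at least 20 in both neoSF or in all 4 monoiPSC libraries, and a gene was called where its adjusted p did not exceed 0.05 and it changed by 2-fold or more. Of the 51 genes, 43 were tested. In monoiPSCs, 8 rose, 21 fell and 14 were not called. Among all 13072 genes tested, 45.9% were called, 24.3% higher and 21.6% lower. The median log2 fold change was -0.90 over the 43 tested genes and 0.08 over all genes tested. A gene that passed the filter only through the cell type where it is high had to differ, so these counts describe the families and do not support a difference from other genes. The 5 MMPs that rose were MMP8, MMP15, MMP16, MMP17 and MMP24, and the 5 that fell were MMP2, MMP9, MMP13, MMP14 and MMP28. None of the 8 tested ADAMs rose and 4 fell, 2 ADAMTSs rose and 7 of 16 fell, 1 ADAMTSL rose and 2 of 4 fell, and all 3 TIMPs fell. Together the 51 genes took 1.17% and 0.960% of all counts in the FD2M1 and LSD1 neoSFs and 0.212% to 0.301% in monoiPSCs.

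**Figure D1:**
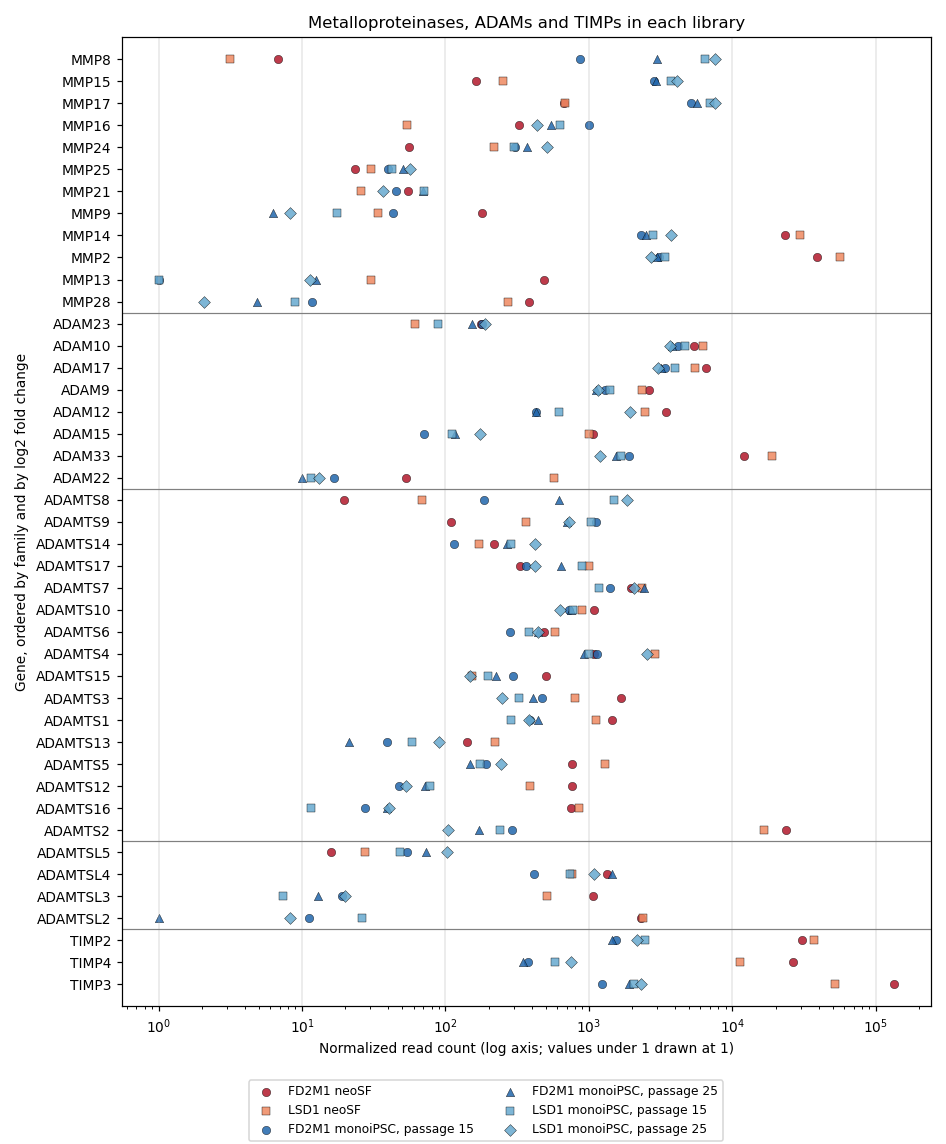
Normalized read count of the 43 tested genes (log axis, values under 1 drawn at 1) in each of the 6 libraries, with 1 symbol per library and genes ordered by family and by fold change. In 9 genes every monoiPSC library lies above both neoSF libraries, in 25 every one lies below, and in 9 the cell types overlap.

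No overlap between the cell types was seen in 34 of these 43 genes, 9 with monoiPSCs above and 25 with monoiPSCs below, where among all genes tested 73.2% did not overlap, 36.1% with monoiPSCs above and 37.1% below. With 4 libraries against 2, an exact two-sided permutation test of a single gene cannot give a p below 0.0667, so the calls rest on the spread that edgeR estimates across all genes.

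The TIMPs were lower in every monoiPSC library. TIMP2, which besides blocking MMPs takes part in the activation of MMP2 by MMP14, had an NRC of 30428 in the FD2M1 and 37102 in the LSD1 neoSFs. In monoiPSCs it was 1536 and 1453 in FD2M1 at passages 15 and 25, and 2445 and 2174 in LSD1. The log2 fold change in monoiPSCs against neoSFs was -4.05 (standard error, SE, 0.25, adjusted p = 2.81e-05). TIMP3, the TIMP that binds to the matrix and also blocks ADAM17, had 134749 and 52037 in the FD2M1 and LSD1 neoSFs, 1230 and 1889 in the FD2M1 monoiPSCs and 2075 and 2308 in the LSD1 monoiPSCs. The FD2M1 neoSFs stood far above the LSD1 neoSFs, and the log2 fold change of TIMP3 was -5.54 (SE 0.41, adjusted p = 4.98e-05), or -4.71 without the FD2M1 neoSFs. For TIMP4 the neoSF values were 26391 and 11402 and the monoiPSC values 377 and 345 in FD2M1 and 585 and 754 in LSD1. Its log2 fold change of -5.10 (SE 0.43, adjusted p = 8.07e-05) became -4.38 when the FD2M1 neoSFs were left out. Both neoSF cultures were far above every monoiPSC library for all 3 inhibitors, and the size of the change in TIMP3 and TIMP4 depended on the FD2M1 neoSFs. The share of all counts on the 3 TIMPs was 0.688% and 0.374% in the FD2M1 and LSD1 neoSFs and 0.0176% to 0.0296% in monoiPSCs.

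Whether reads were counted by strand is not given in the sources used here, so reads of overlapping genes may not have been told apart, and in the RefSeq annotation TIMP3 and TIMP4 lie within the synapsin genes SYN3 and SYN2. SYN3 had an NRC of 4.35 and 10.9 in neoSFs and 30.5 to 59.8 in monoiPSCs, and SYN2 had 4.55 and 6.34 in neoSFs and 34.9 to 173 in monoiPSCs. Both synapsins were higher in monoiPSCs, where the TIMPs were lower. MMP24 overlaps the protein-coding gene MMP24OS, and ADAM10, ADAMTS12, ADAMTS13, ADAMTS18 and ADAMTSL3 overlap noncoding genes. None of these partners was among the genes measured, so their part in the counts of these members is not known.

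Relative to an inhibitor that binds them, MMP14 and ADAM17 were higher in monoiPSCs. The ratio of MMP14 to TIMP2 in NRC was 0.772 and 0.798 in the FD2M1 and LSD1 neoSFs and 1.15 to 1.73 in monoiPSCs. The ratio of ADAM17 to TIMP3 was 0.0483 and 0.105 in neoSFs and 1.32 to 2.76 in monoiPSCs. For MMP2 to TIMP2 it was 1.28 and 1.51 in neoSFs and 1.24 to 2.05 in monoiPSCs. The first and second of these ratios did not overlap between cell types and the third did. They are ratios of transcripts not corrected for gene length, so only their change between libraries can be read.

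The membrane-anchored MMPs changed in opposite directions, with 4 of 6 higher, MMP14 lower and MMP25 not called. MMP14 (gene 100030382, chromosome 1 of MonDom5), the membrane protease that cuts fibrillar collagen and activates MMP2, had an NRC of 23478 and 29612 in the FD2M1 and LSD1 neoSFs. In monoiPSCs it was 2295 and 2493 in FD2M1 and 2820 and 3755 in LSD1, a log2 fold change of -3.13 (SE 0.23, adjusted p = 4.46e-05). Every monoiPSC library lay below both neoSFs, yet far above the detection floor.

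MMP15 (gene 100025296, chromosome 1), a relative of MMP14 with a transmembrane domain, had 163 and 253 in the FD2M1 and LSD1 neoSFs, 2838 and 2945 in the FD2M1 monoiPSCs and 3761 and 4117 in the LSD1 monoiPSCs. It rose by 4.13 on the log2 scale (SE 0.30, adjusted p = 4.33e-05). MMP17 (gene 100028499, chromosome 3), which is held in the membrane by a lipid anchor, had 674 and 686 in neoSFs, 5139 and 5667 in the FD2M1 and 7033 and 7568 in the LSD1 monoiPSCs, a log2 fold change of 3.32 (SE 0.23, adjusted p = 3.84e-05). The neoSF cultures were close to each other for MMP17, and for both genes the LSD1 line was above the FD2M1 line at both passages. Leaving out any library kept both calls, with log2 fold changes of 3.84 to 4.50 for MMP15 and 3.21 to 3.40 for MMP17.

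MMP16 and MMP24, transmembrane MMPs known from the brain, also rose, with less certainty. MMP16 had 328 and 53.6 in the FD2M1 and LSD1 neoSFs, 1003 and 542 in the FD2M1 monoiPSCs and 629 and 435 in the LSD1 monoiPSCs, a log2 fold change of 1.89 (SE 0.69, adjusted p = 0.0446). Its call was lost without the LSD1 neoSFs (1.10, adjusted p = 0.0993), without FD2M1 at passage 15 (1.60) or passage 25 (1.97) and without LSD1 at passage 15 (1.90), and the value was 3.69 without the FD2M1 neoSFs. MMP24 had 55.9 and 217 in neoSFs, 306 and 368 in the FD2M1 and 303 and 511 in the LSD1 monoiPSCs, a log2 fold change of 1.52 (SE 0.53, adjusted p = 0.0376). The call of MMP24 was lost without the FD2M1 neoSFs (0.87, adjusted p = 0.0986) and without FD2M1 at passage 15 (1.60) or 25 (1.53) or LSD1 at passage 15 (1.61) or 25 (1.32), and the value was 2.82 without the LSD1 neoSFs. The neoSF cultures differed from each other in opposite senses, MMP16 being higher in FD2M1 and MMP24 in LSD1. MMP25, the other lipid-anchored member, had 23.4 and 30.1 in neoSFs, 39.9 and 50.9 in the FD2M1 and 42.3 and 56.5 in the LSD1 monoiPSCs, and its log2 fold change of 0.91 (SE 0.38, adjusted p = 0.0666) was not called, although the cell types did not overlap.

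As a share of the counts on the 6 membrane-anchored MMPs, MMP14 took 94.96% (95% Wilson interval 94.6 to 95.3) in the FD2M1 and 96.0% (95.7 to 96.2) in the LSD1 neoSFs. In monoiPSCs the share of MMP14 lay between 19.3% (18.9 to 19.8) and 22.8% (22.4 to 23.3). MMP15 went from 0.655% and 0.821% in neoSFs to 24.4% to 25.8% in monoiPSCs, and MMP17 from 2.73% and 2.22% to 44.2% to 48.2%. The shares of these 3 genes did not overlap between the cell types. The share of MMP16 varied more among monoiPSCs, from 2.65% (2.47 to 2.83) in LSD1 at passage 25 to 8.64% (8.26 to 9.03) in FD2M1 at passage 15, against 1.33% and 0.175% in the FD2M1 and LSD1 neoSFs. The intervals cover counting error only, and a share of counts is not corrected for gene length, so it is compared between libraries and not between genes.

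**Figure D2:**
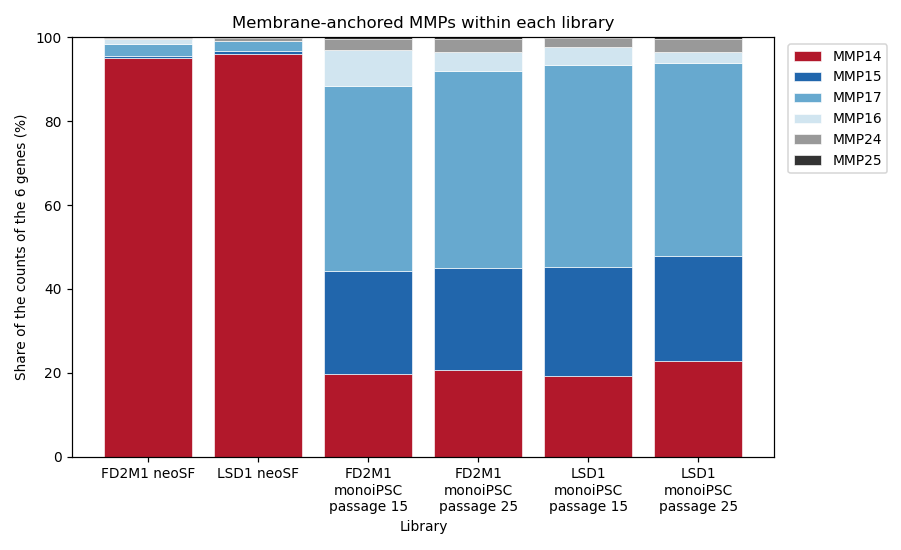
Share of the counts of the 6 membrane-anchored MMPs (%, not corrected for gene length) that each gene took in each of the 6 libraries, as stacked bars. MMP14 took 94.96% and 96.0% in the neoSFs and 19.3% to 22.8% in the monoiPSCs, where most of the rest was MMP15 and MMP17.

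The gelatinases, which cut denatured collagen and basement membrane collagen, were both called lower. MMP2 had an NRC of 38823 and 55874 in the FD2M1 and LSD1 neoSFs, 3069 and 2978 in the FD2M1 monoiPSCs and 3416 and 2705 in the LSD1 monoiPSCs. It fell by 3.87 on the log2 scale (SE 0.20, adjusted p = 1.53e-05), and the monoiPSC libraries were close to each other. MMP9 had 181 and 33.8 in neoSFs, 43.4 and 6.28 in the FD2M1 monoiPSCs and 17.6 and 8.24 in the LSD1 monoiPSCs. The fitted value was -2.40 (SE 0.88, adjusted p = 0.0463), but the FD2M1 monoiPSCs at passage 15 lay above the LSD1 neoSFs. The call of MMP9 was lost without the FD2M1 neoSFs (-0.73, adjusted p = 0.592), without LSD1 at passage 15 (-2.36) or 25 (-2.17) and without FD2M1 at passage 25 (-2.11), and with strain as a block in the fit (-2.12, adjusted p = 0.0545). It was -3.16 without the LSD1 neoSFs and -3.21 without FD2M1 at passage 15.

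The collagenases MMP8 and MMP13, which make the first cut in fibrillar collagen, went in opposite directions. MMP8 (gene 100012425, chromosome 4), known in other mammals as the collagenase of neutrophils, had an NRC of 6.83 and 3.17 in the FD2M1 and LSD1 neoSFs, from 4 and 2 counts. The name MMP8 rests on the authors' symbol, since the RefSeq annotation of another assembly gives this gene a LOC number. In monoiPSCs MMP8 had 872 and 3006 in FD2M1 at passages 15 and 25, and 6427 and 7623 in LSD1. Every monoiPSC library was far above both neoSF cultures, and the LSD1 line was above the FD2M1 line at both passages. The ratio of its depth-scaled counts was 941, with a 95% exact interval of 432 to 2565 for counting error only. The fitted log2 fold change was 9.80 (SE 1.35, adjusted p = 0.000691), and 10.52 without the FD2M1 neoSFs. The summed NRC of the 5 immune cell markers was 116 and 134 in neoSFs and lower, 57.1 to 72.7, in monoiPSCs, and PTPRC, which marks all leukocytes, had at most 6.86 in neoSFs and 5.02 in monoiPSCs. Within that list CSF1R, at 71.2 and 77.9 in neoSFs, was called lower (log2 fold change -3.13, adjusted p = 0.000597), CD14 was higher in every monoiPSC library, at 22.0 to 31.4 against 15.6 and 14.3, without being called, and CD68 overlapped between the cell types. The part of immune cells in the level of MMP8 was not tested.

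MMP13 (gene 100012553, chromosome 4), a collagenase of fibroblasts and cartilage, had 484 in the FD2M1 and 30.1 in the LSD1 neoSFs. It was at 0 in both monoiPSC lines at passage 15, and at 12.6 in FD2M1 and 11.3 in LSD1 at passage 25. Its log2 fold change of -5.32 (SE 1.44, adjusted p = 0.0140) rested on the FD2M1 neoSFs, without which it was -2.25 (adjusted p = 0.283) and not called, while it was -6.24 without the LSD1 neoSFs and -5.93 without FD2M1 at passage 25. DESeq2 did not call MMP13 (adjusted p = 0.0571). Of the counts on MMP8 and MMP13 together, MMP13 took 98.4% (96.0 to 99.4) in the FD2M1 and 90.5% (71.1 to 97.3) in the LSD1 neoSFs, and at most 0.416% (0.269 to 0.641) in monoiPSCs.

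**Figure D3:**
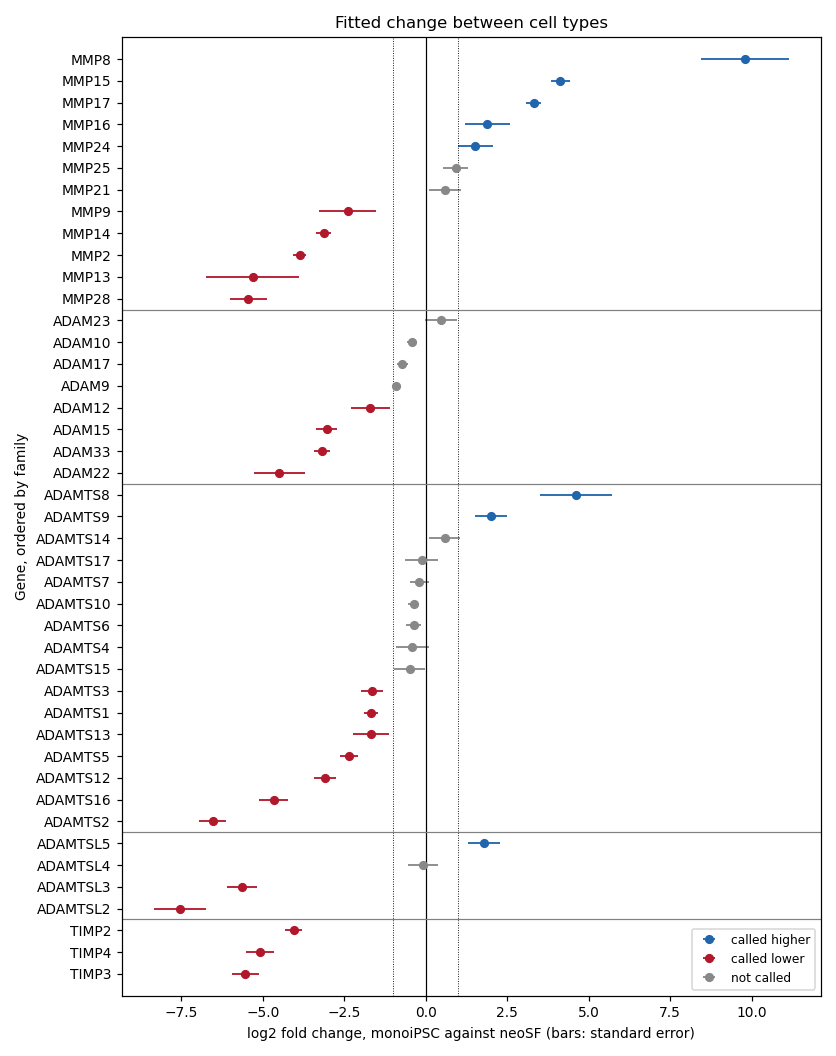
Log2 fold change in monoiPSCs against neoSFs for the 43 tested genes, ordered by family, with bars for the standard error and dotted lines at a 2-fold change. The 8 called higher include 5 MMPs, the 21 called lower include all 3 TIMPs, and MMP8 at 9.80 and ADAMTSL2 at -7.55 mark the ends of the range.

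MMP28, a secreted MMP of skin and other tissues, fell from 381 and 274 in the FD2M1 and LSD1 neoSFs to 11.8 and 4.88 in the FD2M1 and 8.88 and 2.06 in the LSD1 monoiPSCs. Against neoSFs its log2 fold change was -5.44 (SE 0.57, adjusted p = 0.000204). MMP21 had 55.1 and 26.0 in neoSFs, 45.2 and 69.6 in the FD2M1 and 71.4 and 36.8 in the LSD1 monoiPSCs, which overlapped, and was not called (0.59, adjusted p = 0.317). The other 4 MMPs were not tested. The matrilysin MMP7 had 29.9 and 6.07 in neoSFs and 1.12 to 14.3 in monoiPSCs, and the enamel protease MMP20 had 0 in neoSFs and at most 4.03 in monoiPSCs. MMP27 had no library over 3 counts, and MMP26 was at 0 in all 6.

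Several family members lie next to each other in the order of genes of the RefSeq annotation, and neighbours did not always change in the same direction. On chromosome 4, MMP8, MMP27, MMP20 and MMP7 follow each other directly, and 4 genes lie between MMP13 and MMP8. Of these 5 genes, only MMP8 was at a level above an NRC of 20 in monoiPSCs, and in neoSFs MMP13 passed it in both cultures and MMP7 in the FD2M1 culture alone. ADAMTS8 and ADAMTS15 are direct neighbours on the same chromosome, and ADAMTS8 rose while ADAMTS15 was not called. ADAMTS5 and ADAMTS1, also direct neighbours, both fell, as did ADAMTS13 and ADAMTSL2, which lie on chromosome 1 with 4 genes between them.

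**Figure D4:**
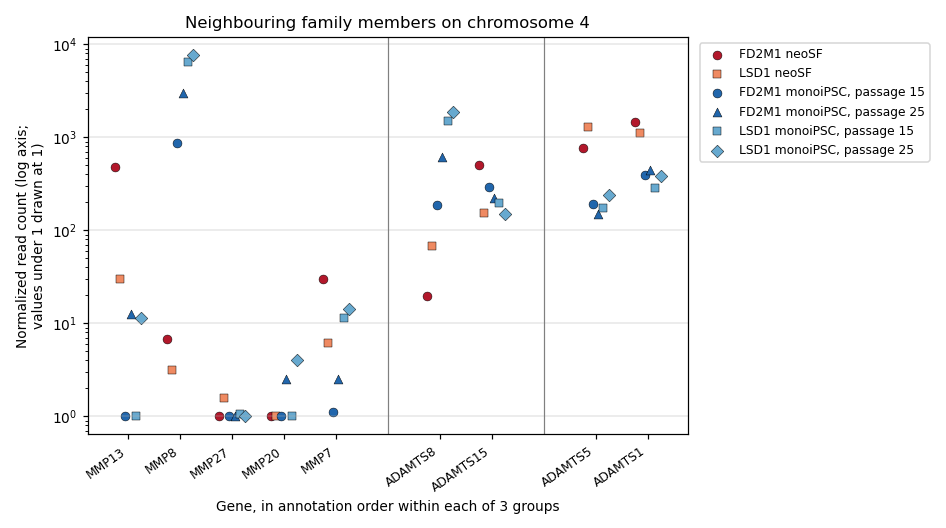
Normalized read count (log axis, values under 1 drawn at 1) in each of the 6 libraries for members that neighbour each other on chromosome 4, in the gene order of the annotation within each of 3 groups. MMP8 lies at 872 to 7623 in monoiPSCs while its neighbours MMP27, MMP20 and MMP7 stay at or under 14.3 there, and ADAMTS5 and ADAMTS1 are both lower in every monoiPSC library.

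Of the 8 tested ADAMs with a family symbol, 4 fell and none rose. ADAM11 and ADAM19, which carry LOC numbers in the data, were called higher and are given under other observations. ADAM33 (gene 100025742, chromosome 5), known from mesenchymal cells of the airway, had 12104 and 18827 in the FD2M1 and LSD1 neoSFs, 1916 and 1553 in the FD2M1 monoiPSCs and 1683 and 1193 in the LSD1 monoiPSCs. The change on the log2 scale was -3.19 (SE 0.25, adjusted p = 5.65e-05). ADAM15, an ADAM that binds integrins, had 1067 and 1005 in neoSFs and 70.8 and 116 in the FD2M1 and 111 and 173 in the LSD1 monoiPSCs, and fell by 3.04 (SE 0.32, adjusted p = 0.000202). For both genes the neoSF cultures were far above every monoiPSC library, and for ADAM15 they were also close together.

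ADAM22, a catalytically inactive ADAM that serves as a receptor for LGI proteins in nerve cells, had only 53.0 in the FD2M1 but 573 in the LSD1 neoSFs, with 16.8 and 10.0 in the FD2M1 and 11.6 and 13.2 in the LSD1 monoiPSCs. For ADAM22 the log2 fold change of -4.50 (SE 0.78, adjusted p = 0.00195) was -1.91 without the LSD1 neoSFs and -5.37 without the FD2M1 neoSFs. It kept its call in each case, so the direction of ADAM22 held and its size depended on the neoSF culture.

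ADAM12, known from myoblast fusion and from mesenchymal cells, had 3447 and 2465 in the FD2M1 and LSD1 neoSFs, 425 and 426 in the FD2M1 monoiPSCs at passages 15 and 25, and 617 and 1934 in the LSD1 monoiPSCs. The LSD1 line at passage 25 was thus well above the other 3 monoiPSC libraries and still below both neoSFs. The log2 fold change was -1.70 (SE 0.61, adjusted p = 0.0421) and -2.51 (adjusted p = 0.000417) without this library. Its call was lost without the FD2M1 neoSFs (-1.45, adjusted p = 0.156), the LSD1 neoSFs (-1.92), FD2M1 at passage 15 (-1.48) or 25 (-1.48) or LSD1 at passage 15 (-1.58). Of the 5 skeletal muscle markers, 4 were found, with a summed NRC of 1180 and 334 in neoSFs, 2202 and 1341 in the FD2M1 monoiPSCs at passages 15 and 25, and 5006 and 10354 in the LSD1 monoiPSCs, so the monoiPSC library with the most ADAM12 also had the most muscle marker RNA, while the neoSFs had more ADAM12 than any monoiPSC library and, in LSD1, the lowest sum of these markers. There MYOG reached 5549, DES 4213 and MYOD1 591, and MYF5 was at 1.03. Their part in the level of ADAM12 was not tested.

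The broad sheddases were not called. ADAM10, which cuts Notch receptors and cadherins, had 5368 and 6285 in neoSFs, 4167 and 3787 in the FD2M1 and 4660 and 3692 in the LSD1 monoiPSCs (log2 fold change -0.42, adjusted p = 0.0529). ADAM17, which releases TNF and ligands of the EGF receptor, had 6509 and 5470 in neoSFs, 3394 and 3164 in the FD2M1 and 4006 and 3053 in the LSD1 monoiPSCs. ADAM17 and ADAM9 passed the p threshold (adjusted p = 0.00689 and 0.00148) but were lower by less than 2-fold, with log2 fold changes of -0.72 and -0.90, and ADAM9 came over it with limma (-1.0003) and with passage 25 alone (-1.03). All 3 were lower in every monoiPSC library than in both neoSFs. ADAM23, another ADAM without protease activity, overlapped between cell types (0.46, adjusted p = 0.447). ADAM2 and ADAM7, known from sperm and epididymis, were at 0 in all libraries, and ADAM28 reached an NRC of 3.14 in 1 library.

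The procollagen N-proteinases, which remove the amino-terminal propeptide of fibrillar procollagens, fell in 2 of 3 cases. ADAMTS2 (gene 100029340, chromosome 1) had an NRC of 23545 and 16674 in the FD2M1 and LSD1 neoSFs, 293 and 171 in the FD2M1 monoiPSCs and 239 and 105 in the LSD1 monoiPSCs. It fell by 6.54 on the log2 scale (SE 0.41, adjusted p = 2.88e-05). ADAMTS3 had 1664 and 799 in neoSFs and 248 to 473 in monoiPSCs, a log2 fold change of -1.66 (SE 0.34, adjusted p = 0.00412) that was -1.05 without the FD2M1 neoSFs. ADAMTS14 had 219 and 171 in neoSFs and 114 to 421 in monoiPSCs, and was not called (0.58, adjusted p = 0.321). Of the counts on the 3 genes, ADAMTS2 took 92.6% (92.1 to 93.0) and 94.5% (94.1 to 94.9) in neoSFs, and 33.3% (31.0 to 35.7) and 20.2% (18.2 to 22.5) in the FD2M1 and 28.1% (25.9 to 30.3) and 13.5% (11.9 to 15.3) in the LSD1 monoiPSCs at passages 15 and 25. The fall of ADAMTS2 was accompanied by that of COL1A1 and COL3A1, the fibrillar collagens on the fibroblast list, with log2 fold changes of -9.36 and -6.90.

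The proteoglycan-cutting ADAMTSs, which act on aggrecan and versican, were divided. ADAMTS1 and ADAMTS5 fell, ADAMTS8 and ADAMTS9 rose, and ADAMTS4 and ADAMTS15 were not called. ADAMTS5, regarded as a main aggrecanase of cartilage, had 767 and 1294 in the FD2M1 and LSD1 neoSFs, 192 and 148 in the FD2M1 monoiPSCs and 175 and 243 in the LSD1 monoiPSCs (log2 fold change -2.35, SE 0.28, adjusted p = 0.000337). ADAMTS1 had 1453 and 1119 in neoSFs and 285 to 441 in monoiPSCs (log2 fold change -1.69, adjusted p = 0.000422).

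ADAMTS8 (gene 100021781, chromosome 4) had 19.6 and 68.4 in the FD2M1 and LSD1 neoSFs, 185 and 616 in the FD2M1 monoiPSCs at passages 15 and 25, and 1488 and 1851 in the LSD1 monoiPSCs. It rose by 4.62 (SE 1.10, adjusted p = 0.00821), and by 4.01 without the FD2M1 and 5.82 without the LSD1 neoSFs. ADAMTS9, which takes part in versican turnover, had 109 and 367 in neoSFs, 1118 and 701 in the FD2M1 and 1040 and 730 in the LSD1 monoiPSCs. Its log2 fold change of 2.00 (SE 0.49, adjusted p = 0.00919) was 1.38 without the FD2M1 and 3.14 without the LSD1 neoSFs, and with passage 25 alone the call was lost (1.67, adjusted p = 0.0651). Every monoiPSC library was above both neoSFs for ADAMTS8 and ADAMTS9, and in neoSFs both were higher in LSD1. ADAMTS4 had 1093 and 2890 in neoSFs, 1142 and 921 in the FD2M1 and 1006 and 2529 in the LSD1 monoiPSCs, and its cell types overlapped (-0.42, adjusted p = 0.496). ADAMTS15 had 506 and 153 in neoSFs and 150 to 295 in monoiPSCs (-0.50, adjusted p = 0.383).

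Of the other ADAMTSs, 3 fell. ADAMTS16, a protease that can act on fibronectin, had 749 and 855 in neoSFs, 27.6 and 38.9 in the FD2M1 and 11.6 and 40.3 in the LSD1 monoiPSCs, a log2 fold change of -4.67 (SE 0.45, adjusted p = 0.000137). ADAMTS12, which can cut COMP, had 764 and 391 in neoSFs, 47.7 and 72.4 in the FD2M1 and 78.4 and 53.3 in the LSD1 monoiPSCs, and fell by 3.10 (SE 0.34, adjusted p = 0.000247). ADAMTS13, the protease of von Willebrand factor, had 140 and 221 in neoSFs and 21.3 to 90.6 in monoiPSCs (log2 fold change -1.69, adjusted p = 0.0283), and its call was lost without the LSD1 neoSFs (-1.32, adjusted p = 0.153) and without FD2M1 (-1.57) or LSD1 (-1.74) at passage 15. In none of the 3 did the cell types overlap. ADAMTS7, another COMP-cutting protease, had 1979 and 2362 in neoSFs, 1404 and 2439 in the FD2M1 and 1173 and 2078 in the LSD1 monoiPSCs, and was not called (-0.20, adjusted p = 0.583), nor were ADAMTS6, ADAMTS10 and ADAMTS17, with log2 fold changes of -0.37, -0.37 and -0.12. ADAMTS18 had at most 4.39 in any library and was not tested.

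Among the ADAMTSLs, ADAMTSL2, a fibrillin-binding protein of microfibrils, had the lowest log2 fold change of the 43 tested genes. Its NRC was 2324 and 2394 in the FD2M1 and LSD1 neoSFs, 11.1 and 0 in the FD2M1 monoiPSCs and 26.0 and 8.24 in the LSD1 monoiPSCs. The log2 fold change was -7.55 (SE 0.80, adjusted p = 0.000215), and -8.35 without LSD1 at passage 15. ADAMTSL3 had 1065 and 510 in neoSFs, 19.1 and 12.9 in the FD2M1 and 7.36 and 19.98 in the LSD1 monoiPSCs, and fell by 5.63 (SE 0.46, adjusted p = 7.39e-05), while its log2 fold change was -5.01 without the FD2M1 neoSFs. In both genes the neoSFs were far above every monoiPSC library.

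ADAMTSL5 went the other way at low levels, with 15.9 and 27.5 in neoSFs, 53.7 and 73.3 in the FD2M1 and 48.6 and 103 in the LSD1 monoiPSCs. The log2 fold change of 1.79 (SE 0.50, adjusted p = 0.0160) lost its call without the FD2M1 neoSFs (1.46, adjusted p = 0.0915) and with passage 15 alone (1.33, adjusted p = 0.0762). It overlaps PLK5 in the annotation, which had 25.7 and 32.6 in neoSFs and 7.86 to 17.5 in monoiPSCs. ADAMTSL4 had 1327 and 766 in neoSFs, 413 and 1447 in the FD2M1 and 738 and 1083 in the LSD1 monoiPSCs, and was not called (-0.09, adjusted p = 0.877).

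Among the monoiPSC libraries, 36 of the 51 genes reached an NRC of 20 in all 4 and were tested. Between passages 25 and 15, and between the LSD1 and FD2M1 lines, edgeR called 0 of the 36, and also 0% of all 12252 genes tested. At an unadjusted p under 0.05, 9 of the 36 differed between passages and 13 between lines, where the shares of all genes were 9.35% and 14.2%. DESeq2, which called 0.977% of all genes between passages and 1.66% between lines, called 1 of these genes between passages, ADAMTSL4 (log2 difference 1.17, adjusted p = 0.0239), and 3 between lines, ADAM12 (1.37, adjusted p = 0.00731), MMP8 (2.12, adjusted p = 3.22e-09) and ADAMTS8 (2.30, adjusted p = 2.33e-09). In edgeR, MMP8 and ADAMTS8 differed between lines by 2.11 and 2.29 on the log2 scale (adjusted p = 0.136 for each). With 2 libraries on each side, neither result settles whether the lines differ.

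Both LSD1 libraries were above both FD2M1 libraries in 11 of the 36 genes and below in 3, and such an order was seen in 43.5% of all genes. The 11 genes included all 3 TIMPs, MMP8, MMP14, MMP15 and MMP17, ADAM12, ADAMTS8, ADAMTS13 and ADAMTS14. In 15 of the 36 genes the highest monoiPSC library was at least 2-fold above the lowest, and the share of all genes with such a span was 19.5%. ADAMTS8 spanned 10.0-fold and MMP8 8.74-fold, while MMP2 spanned 1.26-fold. The ratio of MMP8 to ADAMTS8 counts stayed between 4.12 and 4.88 in the 4 monoiPSC libraries, so both followed the same order of libraries, from FD2M1 at passage 15 to LSD1 at passage 25. In the FD2M1 and LSD1 neoSFs this ratio was 0.348 and 0.0463, from only 4 and 2 counts of MMP8. The pair was compared after these values were seen.

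Genes that activate, inhibit or are cut by these proteases were taken from a list of 45, of which 42 were found and 35 tested. In monoiPSCs 12 rose, 13 fell and 10 were not called, with a median log2 fold change of -0.01, where 24.3% of all genes tested were called higher and 21.6% lower.

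RECK, a membrane-bound inhibitor of MMPs, had 1915 and 1848 in neoSFs and 190 to 325 in monoiPSCs (log2 fold change -2.76, adjusted p = 5.77e-05). SPOCK2, a secreted proteoglycan, had 63.4 and 39.6 in neoSFs and 2172 to 4510 in monoiPSCs (5.97, adjusted p = 6.22e-05). SERPINE2 and SPOCK1 were not called, nor was BSG, an inducer of MMPs, at 0.43. RECK was low in the same libraries as the TIMPs. SPOCK2 was high in them, and whether it inhibits MMPs was not tested.

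Of the activators, FURIN, the convertase that removes the propeptide of membrane-anchored MMPs and ADAMs, was not called (-0.01, adjusted p = 0.984), with 7933 and 4641 in neoSFs and 5098 to 7149 in monoiPSCs. PCSK7, another convertase, had 3622 and 3329 in neoSFs and 438 to 532 in monoiPSCs (-2.76, adjusted p = 1.53e-05), and PLAUR, the urokinase receptor, had 1128 and 737 in neoSFs and 11.4 to 30.02 in monoiPSCs (-5.64, adjusted p = 4.77e-05). PCSK6 and PLAT, the tissue plasminogen activator, had log2 fold changes of -1.47 and 2.13 (adjusted p = 0.0382 and 0.0460), but both calls were lost with strain as a block (adjusted p = 0.0604 and 0.0798). The call of PCSK6 was also lost without the LSD1 neoSFs (-0.58), LSD1 at passage 15 (-1.24) or 25 (-1.47) or FD2M1 at passage 25 (-1.51). That of PLAT was lost without the FD2M1 (2.51) or LSD1 neoSFs (1.83), LSD1 at passage 15 (2.14) or 25 (1.49) or FD2M1 at passage 25 (2.27). Partners of the sheddases rose. RHBDF1 and RHBDF2, the iRhoms that escort ADAM17 to the cell surface, rose by 1.51 and 2.17 (adjusted p = 0.0117 and 0.00217), although RHBDF1 was not called without the LSD1 neoSFs (1.10, adjusted p = 0.0686), where RHBDF2 was at 2.97. TSPAN5, TSPAN14 and TSPAN33, tetraspanins that escort ADAM10, rose as well, whereas their relatives TSPAN15 and TSPAN17 were not called. TSPAN33 had 0 counts in both neoSFs and 117 to 176 in monoiPSCs, at least 25.3-fold higher against a floor of 3 counts per library. These 5 partners were above both neoSFs in every monoiPSC library, where ADAM10 and ADAM17 themselves were below.

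BMP1, the astacin protease that removes the carboxy-terminal propeptide of procollagens, fell with its enhancers PCOLCE and PCOLCE2, with log2 fold changes of -1.94, -3.81 and -3.54 (adjusted p = 0.000298, 4.10e-05 and 0.00148). PCOLCE2 was at -2.31 without the FD2M1 and -4.20 without the LSD1 neoSFs. TLL2, a relative of BMP1, had 29.98 and 13.7 in neoSFs and 1012 to 2343 in monoiPSCs, and rose by 6.46 (SE 0.54, adjusted p = 7.68e-05). TLL1 was not called (1.41, adjusted p = 0.112), but was with strain as a block (1.61, adjusted p = 0.0373). ADAMTS2, ADAMTS3, BMP1, PCOLCE and PCOLCE2 were lower in every monoiPSC library than in both neoSFs, while ADAMTS14 and TLL1 overlapped between the cell types. TLL2 was higher in every monoiPSC library, and whether it acts on procollagens was not tested.

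Of the substrates, COMP, ACAN, FBN1, HBEGF and VCAN fell and CDH1, NCAN, TGFA and NOTCH1 rose. HBEGF lost its call without the FD2M1 neoSFs (-1.72, adjusted p = 0.0602), and VCAN without the LSD1 neoSFs (-0.97). COMP, a cartilage and tendon matrix protein, had 149235 and 93214 in neoSFs and 12.3 to 51.1 in monoiPSCs (-11.66, SE 0.63, adjusted p = 1.69e-05). The proteoglycan aggrecan, ACAN, had 67335 in the FD2M1 but 1712 in the LSD1 neoSFs, and 15.9 to 73.4 in monoiPSCs (-9.34, SE 1.33, adjusted p = 0.000793), and was at -5.02 without the FD2M1 and -10.30 without the LSD1 neoSFs. E-cadherin, CDH1, which ADAM10 can cut, had 1.95 and 19.3 in neoSFs and 1476 to 2889 in monoiPSCs (7.64, SE 0.63, adjusted p = 7.64e-05), and was at 6.87 without the FD2M1 and 10.11 without the LSD1 neoSFs. The values of NCAN were 3.24 and 6.74 in these fits, and that of TGFA was 2.60 without the FD2M1 neoSFs. FBN1, the microfibril protein bound by ADAMTSL2, fell by 4.49 (adjusted p = 9.78e-06), and NOTCH1 rose by 1.56 (adjusted p = 0.00326). COMP, ACAN, FBN1, VCAN and HBEGF were lower in every monoiPSC library than in both neoSFs, CDH1, NCAN, TGFA and NOTCH1 were higher in each, and CDH2 overlapped between the cell types.

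**Figure D5:**
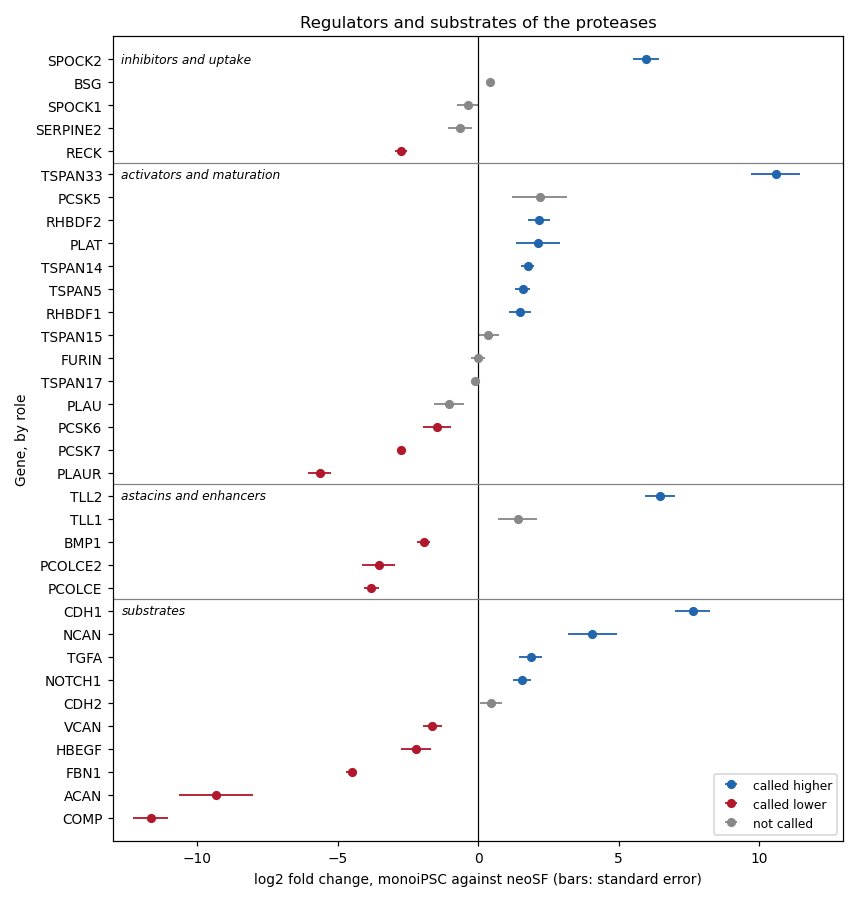
Log2 fold change in monoiPSCs against neoSFs for tested regulators and substrates of the proteases, grouped by role, with bars for the standard error. TSPAN33, CDH1, TLL2 and SPOCK2 lie highest of the genes drawn and COMP, ACAN and PLAUR lowest. The group of inhibitors and uptake also holds SPOCK2 and BSG, whose effect on MMPs was not tested.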

How the data were processed

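Per the labels, mRNA libraries were made from total RNA of 2 neoSF and 4 monoiPSC samples. With StrandNGS, the authors mapped the reads to the MonDom5 genome and RefSeq transcripts. They discarded poor and badly placed reads and, of multiply placed reads, those that were not primary. They deposited counts per gene and, after DESeq normalization, log2 values. Of the deposited counts above 0, 87.1% were fractional, which is why they are taken here as estimated counts and were rounded. The NRC is the deposited log2 value raised from its log scale, and a log2 of 0 was read as 0. Depth and detection floors are given with the groups.

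Genes that reached an NRC of 20 in both neoSFs or in all 4 monoiPSCs were tested with edgeR 4.0.16 (quasi-likelihood F test on TMM-scaled counts, R 4.3.3) and p-values were adjusted by Benjamini-Hochberg over all genes tested. The standard error is the size of the log2 fold change divided by the square root of F. DESeq2 1.42.0 and limma 3.58.1 served as alternatives, beside other scalings and filters, strain as a block, single or summed passages and leaving out each library. The fit was tested on simulated data. Strain pairs each line with the neoSF culture it was made from, but the strain difference in neoSFs and that in monoiPSCs were barely correlated across 13072 genes (r = 0.0721 at passage 15 and -0.00569 at passage 25), and the main test has no block.

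The genes and lists were chosen with earlier results of these data known. The values of each library are given for all TIMPs. In each other family they are given for up to 4 genes called higher, those with the highest log2 fold changes. The same holds for up to 4 genes called lower, those with the lowest, and for up to 2 uncalled genes with the highest mean NRC. For the regulators and substrates the rule took the 4 highest and 4 lowest called genes, of which 1 is counted but not reported here, and these have their monoiPSC values given as a range. MMP9, MMP24, ADAMTS1, ADAMTS3, ADAMTS13, the other uncalled genes and the other regulators fall outside this rule and were named after their values were seen, to complete their groups. Gene order, overlaps and names come from the RefSeq annotation of mMonDom1.pri, another assembly, in which 49 of the 51 gene numbers were found and 46 had the same symbol. MMP8, ADAMTS7 and ADAM2 carry LOC numbers there, so these names rest on the symbols given by the authors. No coordinates or sequences are given, since no genome of the authors' build was used here.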

Additional observations from a re-analysis of the deposited data

Results flagged for a closer look

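Among the 4 monoiPSC libraries, 1 library stood apart in 2 of the 43 tested genes by Dixon's test, which compares the gap to the nearest library with the whole range and which chance passes in about 1 of 20 groups. ADAM12 had an NRC of 1934 in LSD1 at passage 25, where the next highest monoiPSC library had 617 (gap 0.873 of the range). ADAMTS4 had 2529 in the same library, and the next highest had 1142 (gap 0.863 of the range). That library also held the highest summed NRC of the skeletal muscle markers, 10354, against 1341 to 5006 in the other 3, and the part of these markers in both values was not tested.

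ADAMTS17 went in opposite directions in the strains. The FD2M1 neoSFs had 331 normalized reads and the FD2M1 monoiPSCs 363 and 638 at passages 15 and 25, against 1009 in the LSD1 neoSFs and 891 and 424 in the LSD1 monoiPSCs. In FD2M1 both monoiPSC libraries were above the neoSFs, with a log2 ratio of the monoiPSC mean to the neoSF value of 0.60, and in LSD1 both were below, with -0.62. The difference between the strains was not tested.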

How the results depend on the processing

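Of the 29 called genes, 22 kept their call in each of the 6 fits that left out a library and 21 in every alternative. The count of higher genes was 8 in the main test, 5 with passage 15 only and 5 with passage 25 only, and 6 to 7 when a library was left out. With passage 15 only, MMP9, MMP16, MMP24 and ADAMTSL5 lost their call, and with passage 25 only, MMP16, MMP24, ADAM12, ADAMTS9 and ADAMTS13 did. With the passages of a line summed, which leaves 2 libraries in each group, MMP9, MMP16, MMP24, ADAM12 and ADAMTS13 were no longer called. The count of lower genes was 21, and 18 to 20 when a library was left out, and for the regulators and substrates these counts were 12 and 13, with 11 to 13 and 12 to 13. The strain as replicate block gave 8 higher and 20 lower genes, lost the calls of MMP9, PCSK6 and PLAT, gained that of TLL1, changed no other call among the family genes, regulators and substrates tested, and put ADAMTS17 at 0.028. Within monoiPSCs, 0 genes were called with and without the replicate block in edgeR, and DESeq2 called 1 between passages and 3 between lines (0.977% and 1.66% of all genes).

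Directions turned only in genes that were not called. ADAMTS7 was at 0.15 and ADAMTSL4 at 0.37 with passage 25 only, and ADAMTSL4 was at 0.021 with upper-quartile scaling. When 1 library was left out, the log2 fold change ranged from -0.43 to 0.35 for ADAMTSL4 (0.15 and 0.0018 without FD2M1 or LSD1 at passage 15), -0.96 to 0.46 for ADAMTS4, -0.12 to 1.39 for ADAM23, -1.12 to 0.59 for ADAMTS15 and -0.71 to 0.91 for ADAMTS17 (0.045 without FD2M1 at passage 15), with the ends set by the neoSF culture left out, and ADAMTS15 was called lower without the LSD1 neoSFs. The cause of these changes was not tested. Upper-quartile scaling moved the median log2 fold change of all genes from 0.08 to 0.19, lost MMP9 and added MMP25.

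With 2 neoSF libraries, the size of many changes depends on 1 culture, and genes near the floor are measured less precisely in the shallower neoSF libraries.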

Other observations

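Some relatives of these families carry only LOC numbers in the files and so fell outside the rule on symbols. They were looked up after the values were seen, through the gene number in the RefSeq annotation. ADAM19, known from heart valve formation and neuregulin shedding, had an NRC of 181 and 160 in the FD2M1 and LSD1 neoSFs, 937 and 705 in the FD2M1 monoiPSCs at passages 15 and 25, and 544 and 794 in the LSD1 monoiPSCs. Its log2 fold change was 2.22 (SE 0.27, adjusted p = 0.000396 in edgeR), so a called higher ADAM exists beyond the 11 with a family symbol. ADAM11, a catalytically inactive ADAM of nerve cells, had 21.5 and 56.2 in neoSFs, 3355 and 4344 in the FD2M1 and 5248 and 5515 in the LSD1 monoiPSCs, a log2 fold change of 6.97 (SE 0.46, adjusted p = 3.35e-05 in edgeR). ADAMTSL1 had 8670 and 1738 in neoSFs and 78.3 to 153 in monoiPSCs, a log2 fold change of -5.41 (SE 0.58, adjusted p = 0.000224 in edgeR). The cell types did not overlap in any of the 3.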
